A study of Mus musculus with 28 samples.

Results

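The comparison set WT cells at d6 of reprogramming against WT cells at d4, with 2 libraries at each day, 4 of the 28 libraries of the series. It was read over all 16932 genes that passed a filter on low counts, of 37620 listed. The study sequenced poly(A) RNA from WT and K36M mouse embryonic fibroblasts (MEFs), while OKSM (Oct4, Klf4, Sox2 and Myc) turned them into induced pluripotent stem cells (iPSCs). K36M is a histone H3 in which methionine replaces lysine 36. Its 14 groups of 2 libraries were d0 MEFs, d2, d4, d6, d8 and iPSC of each genotype, and MEFs that had no OKSM. WT d4 and WT d6 were both labelled as reprogramming intermediates of WT genotype, in contrast to the MEFs without OKSM, and both grew in a medium the labels call AGi, so the comparison crosses no change of medium. Library names mark WT cells with H3_3, and the labels do not say how the factors or the histones were introduced. Nor do they say that replicate libraries are separate cultures, and p-values then reflect only how far the libraries lie apart, possibly for technical reasons.

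A fibroblast is a mesenchymal cell that lies single in a collagen-rich matrix, and a pluripotent stem cell is an epithelial-like cell joined to its neighbours by E-cadherin. During reprogramming the cells therefore pass through a mesenchymal-to-epithelial transition, in which adhesion proteins, tight junction claudins and their regulators come on. The pluripotency network, a set of transcription factors and signalling proteins in which Nanog and the endogenous Oct4 and Sox2 genes support each other, comes on late and in few cells at first. Most cells given the factors never complete the change.

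Total gene counts were 18585443 and 30882393 in the WT d4 libraries and 20502258 and 19700596 in the WT d6 libraries, within the range of 17507521 to 35622279 over the series. Levels are given as counts scaled to a common library size (CPM) after TMM scaling, for replicate 1 and then replicate 2, and differences as log2 fold changes ± SE (d6 over d4, n = 2 libraries per day) with p-values of edgeR's quasi-likelihood test, adjusted by Benjamini-Hochberg over all 16932 genes. CPM is not corrected for gene length, so it compares libraries and not genes. In bulk RNA a change in the number of cells of a type and a change in the RNA per cell cannot be told apart. Some fibroblast markers were present at both days, while others were near 0 or far below their level in WT MEFs. Col1a1, a fibroblast collagen, stood at 242 and 312 CPM at d4 and at 441 and 389 CPM at d6. Thy1, a fibroblast surface protein, stood at 87.7 and 78.9 and then at 115 and 129.5 CPM. The matrix genes Lum and Dcn averaged 0.0424 and 1.13 CPM at d4 and 0.047 and 2.38 CPM at d6. Postn, another matrix gene, averaged 2.90 CPM at d4 and 9.15 CPM at d6, against 1960.2 CPM in WT d0 MEFs. Of the late pluripotency markers, Zfp42 and Dppa2 had 0 counts at d4 and 3 each at d6, and Prdm14 had 0 at both days.

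Between d4 and d6, 791 genes (4.67% of 16932) differed, and 613 of them (3.62%) rose while 178 (1.05%) fell. Changes of at least 2-fold were nearly all rises, 325 genes in all (1.92%), with 313 higher (1.85%) and 12 lower (0.0709%). The genes that rose came from low levels, with a median of 4.27 CPM at d4 and 9.00 CPM at d6, against 14.8 and 15.2 CPM over all genes tested. The genes that fell had a median of 49.6 CPM at d4 and 36.01 CPM at d6. Of the 313 genes that rose at least 2-fold, 152 (48.6%) were under 1 CPM at d4, and 25 had 3 or fewer counts over both d4 libraries. All 791 had d4 and d6 values that did not overlap, which also held for 7447 (44%) of all genes tested. With 1 of the 4 libraries left out, between 379 genes (without WT d6 replicate 1) and 489 genes (without WT d6 replicate 2) passed, and 265 of the 791 passed in each of the 4 such fits.

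**Figure D1:**
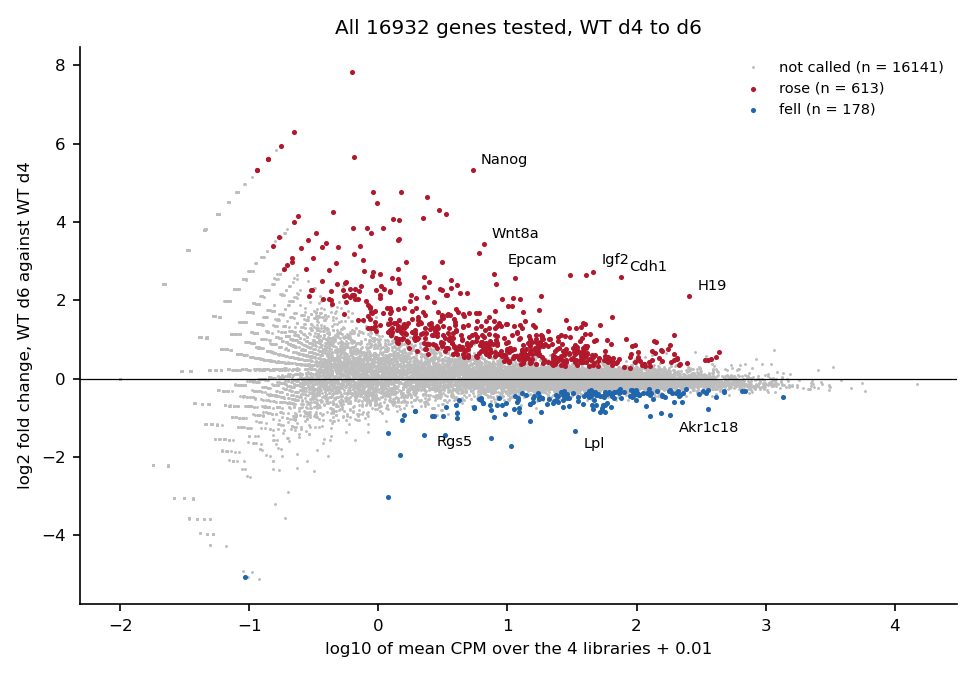
Each point is 1 of the 16932 genes tested; the x axis is log10 of the mean CPM over the 4 libraries plus 0.01 and the y axis is the log2 fold change of WT d6 over WT d4. Red points are the 613 genes that rose and blue points the 178 that fell; the large rises lie at low and middle levels, and the falls are mostly small.

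Nanog, a core transcription factor of the pluripotency network, had the largest rise among called genes with a mean of at least 5 CPM over the 4 libraries. It stood at 0.265 and 0.254 CPM at d4 and at 10.4 and 10.6 CPM at d6. The log2 fold change was 5.31 ± 0.217 (edgeR adjusted p = 2.7e-13). Both d6 libraries lay far above both d4 libraries, and both were far below the 451 and 407 CPM of WT iPSCs. Of 28 pluripotency genes tested 13 rose and none fell, against 3.62% of all genes that rose, and the median log2 fold change was 1.69, or 1.65 with 3 genes left out that had 0 counts at d4 and at most 3 at d6. The factors of the network that rose were Nanog, Sall4, a zinc finger factor (3.34 and 3.71, then 17.1 and 12.0 CPM, log2 fold change 2.03 ± 0.22), Tfcp2l1 (3.24 and 4.06, then 13.4 and 11.1 CPM, 1.72 ± 0.204), Esrrb, an orphan nuclear receptor (0.159 and 0.127, then 2.71 and 2.12 CPM, 4.07 ± 0.704), Nr0b1 and Utf1. Their edgeR adjusted p-values were 2.84e-06 for Sall4, 6.15e-06 for Tfcp2l1 and 0.00107 for Esrrb, and Esrrb did not pass without WT d4 replicate 2 (adjusted p = 0.054). The ligands and receptors of the list formed the other part of the rise. Tdgf1, the Nodal co-receptor Cripto, went from 0.159 and 0.190 CPM to 5.47 and 3.66 CPM, with 4.64 ± 0.566 (edgeR adjusted p = 1.5e-05). Nodal, a TGF-beta family ligand, went from 2.71 and 1.74 CPM to 7.21 and 6.26 CPM, with 1.65 ± 0.203 (edgeR adjusted p = 2.16e-05). Lefty2, the Nodal inhibitor, rose by 3.38 ± 0.419 on the log2 scale from 0.159 and 0.0952 CPM (edgeR adjusted p = 1.82e-05). The RNA-binding protein gene Lin28a and the threonine dehydrogenase gene Tdh rose too. Gdf3 and Fgf4 passed with all libraries (edgeR adjusted p = 0.0192 and 0.0221) but reached adjusted p-values of 0.244 and 0.179 with 1 library left out (Gdf3 did not pass without WT d4 replicate 2, WT d6 replicate 1 or WT d6 replicate 2, Fgf4 without any 1 of the 4). The other 10 passed without each library.

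The factors that drive reprogramming did not pass the test over the same days. Pou5f1, the gene of Oct4, stood at 132 and 195 CPM at d4 and at 200.2 and 159 CPM at d6, Klf4 at 166 and 218 and then 229 and 181 CPM, Sox2 at 97.9 and 127 and then 129 and 100.2 CPM, and Myc at 242 and 261 and then 259 and 217 CPM. Their log2 fold changes were 0.14 ± 0.184, 0.09 ± 0.129, 0.02 ± 0.171 and -0.08 ± 0.199 (edgeR adjusted p = 0.833, 0.833, 0.999 and 0.932). The d4 and d6 values of each overlapped. The counts do not separate introduced from endogenous copies, and whether reads of introduced copies were counted was not checked. The Nanog promoter is shown because Nanog led the rise while the counts of Oct4 and Sox2, which are known to bind it as a pair, did not pass the test. The window runs from 250 bases before to 50 after one of the 2 RefSeq start sites of Nanog, chr6:122707239-122707538 of GRCm38.p6, plus strand. Capitals mark the octamer core TTTGCAT, searched on both strands, which begins at position -75 from the start site. Of 32851 promoter windows of this length 4.63% held it. The 2 windows of Nanog overlap and share this one match, and of the 9 pluripotency genes that rose and had a window only Nanog held it, so nothing is read from the list.
Nanog: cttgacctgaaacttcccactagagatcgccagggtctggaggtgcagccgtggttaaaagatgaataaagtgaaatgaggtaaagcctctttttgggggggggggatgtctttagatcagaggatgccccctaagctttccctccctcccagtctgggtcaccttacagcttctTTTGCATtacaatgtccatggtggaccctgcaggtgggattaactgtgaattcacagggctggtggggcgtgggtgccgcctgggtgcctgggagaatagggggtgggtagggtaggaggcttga

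Epithelial genes formed the other large group of rises. Epcam, an adhesion protein of epithelial and pluripotent cells, stood at 8.65 and 8.22 CPM at d4 and at 54.6 and 51.0 CPM at d6, with 2.65 ± 0.113 on the log2 scale (edgeR adjusted p = 3.39e-13). Cdh1, the gene of E-cadherin, went from 23.2 and 19.9 CPM to 142 and 117 CPM, with 2.59 ± 0.165 (edgeR adjusted p = 3.95e-10). Both genes were several times higher in each d6 library than in either d4 library. Of 24 tested genes of epithelial junctions and keratins 17 rose and 1 fell, with a median log2 fold change of 1.38, and of 16 epithelial regulators and proteases 8 rose and none fell, with a median of 1.22. Over all genes 3.62% rose and the median was 0. The tight junction claudins Cldn7 (log2 fold change 4.30 ± 0.296), Cldn6 (2.67 ± 0.174) and Cldn4 (2.03 ± 0.162) rose (edgeR adjusted p = 1.15e-09, 5.04e-10 and 1.52e-08), and so did Crb3, a polarity protein, Ocln, occludin, and Cgn, cingulin. Krt8, a keratin of simple epithelia, went from 7.64 and 8.25 CPM to 26.5 and 27.2 CPM, while Krt19, another keratin, was the 1 member that fell, from 155 and 138 CPM to 88.1 and 90.5 CPM, with -0.71 ± 0.146 (edgeR adjusted p = 0.00365, and 0.0596 without WT d6 replicate 1). Keratin counts are uncertain where related copies share reads.

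Among the regulators, Grhl2, a Grainyhead factor that activates junction genes, rose from 0.159 and 0.254 CPM to 2.94 and 2.36 CPM, with 3.57 ± 0.343 (edgeR adjusted p = 1.21e-06). Esrp1, a splicing factor of epithelial cells, rose from 3.77 and 4.63 CPM to 19.2 and 16.4 CPM, with 2.06 ± 0.139 (edgeR adjusted p = 3.38e-09). Ovol2, an epithelial zinc finger repressor, Rab25, an epithelial trafficking GTPase, and Ap1m2, the epithelial adaptor subunit of basolateral sorting, rose as well, the last by 4.20 ± 0.233. St14, the membrane protease matriptase, and its inhibitors Spint1 and Spint2 rose together, with log2 fold changes of 1.15 ± 0.118, 2.10 ± 0.134 and 1.30 ± 0.14 (edgeR adjusted p = 9.08e-07, 3.95e-10 and 1.82e-06). All 8 regulators and proteases passed without each of the 4 libraries, as did 12 of the 18 junction and keratin genes. Among the exceptions were Cldn3, Krt18, Krt19, Tjp3 and Jup, whose edgeR adjusted p-values reached 0.191, 0.275, 0.0596, 0.28 and 0.358 with 1 library left out. Removing WT d6 replicate 1 ended the call for these 5, as did removing WT d4 replicate 2 for all but Krt19, WT d6 replicate 2 for Tjp3, and WT d4 replicate 1 for Jup. Markers of keratinocytes moved with this group. Of 15 tested 4 rose and none fell, beside 3.62% and 1.05% of all genes. The summed level of the 15 was 23.03 to 24.99 CPM at d4 and 46.6 to 52.4 CPM at d6, most of it Sfn. Sfn alone passed without each library, and 2 of the 4 passed without WT d4 replicate 2. Krt17 did not pass without WT d4 replicate 2 (edgeR adjusted p up to 0.0706), Krtdap did not pass without WT d4 replicate 1 (edgeR adjusted p up to 0.0913), and Lgals7 did not pass without WT d4 replicate 2 or WT d6 replicate 1 (edgeR adjusted p up to 0.345). The defining basal markers were near 0 at both days (Krt5 at a mean of 0.148 and 0.329 CPM, Krt14 at 0.317 and 0.541 CPM), and the part of such cells in the result was not tested.

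Promoters of 3 of these genes are shown for the E-box CACCTG, the sequence that Zeb and Snail repressors bind, which is known for controlling epithelial genes in this transition. They were chosen because each holds a pair of matches, whereas the window of Spint1 and 1 of the 2 windows of Cldn7 hold 0. It is one of the E-boxes of the form CANNTG and was searched on both strands, so that capitals mark CACCTG or CAGGTG. It was held by 20.2% of all 32851 promoter windows, by 26.4% of the windows of the genes that rose (150 of 569) and by 17.0% of those of the genes that fell (31 of 182). Among the epithelial genes that rose it was in 77.3% of windows (17 of 22, from 18 of 25 genes matched), and among all epithelial genes of the lists, whether they rose or not, in 73.3% (22 of 30). Windows of one gene can overlap and share a match. Other motifs were searched too. The Grainyhead motif AACCNGTT, where N is any base, was in 2 of the 22 windows and in 1.8% of windows of all genes tested. The Tfap2 motif GCCNNNGGC was in 22.7% of the 22, against 24.5%, and the CCAAT box in 22.7%, against 37.4%. The CACCTG or CAGGTG matches begin at positions -187 and -19 from the start site in Epcam, -93 and 41 in Cldn6 and -14 and 12 in Cldn4. The windows are RefSeq's on GRCm38.p6, namely chr17:87635729-87636028 on the plus strand for Epcam, chr17:23679115-23679414 on the plus strand for Cldn6 and chr5:134946885-134947184 on the minus strand for Cldn4.
Epcam: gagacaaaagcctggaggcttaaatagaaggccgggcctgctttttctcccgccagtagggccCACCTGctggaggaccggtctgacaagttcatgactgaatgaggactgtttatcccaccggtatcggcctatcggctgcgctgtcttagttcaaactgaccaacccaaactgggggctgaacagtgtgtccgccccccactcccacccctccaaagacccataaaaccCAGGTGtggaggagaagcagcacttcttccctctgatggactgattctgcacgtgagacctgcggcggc
Cldn6: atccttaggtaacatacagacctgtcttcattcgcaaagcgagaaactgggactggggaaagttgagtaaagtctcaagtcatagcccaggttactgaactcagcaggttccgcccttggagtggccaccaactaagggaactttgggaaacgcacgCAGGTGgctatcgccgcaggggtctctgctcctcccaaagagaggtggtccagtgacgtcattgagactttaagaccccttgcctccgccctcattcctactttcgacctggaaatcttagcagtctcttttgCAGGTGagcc
Cldn4: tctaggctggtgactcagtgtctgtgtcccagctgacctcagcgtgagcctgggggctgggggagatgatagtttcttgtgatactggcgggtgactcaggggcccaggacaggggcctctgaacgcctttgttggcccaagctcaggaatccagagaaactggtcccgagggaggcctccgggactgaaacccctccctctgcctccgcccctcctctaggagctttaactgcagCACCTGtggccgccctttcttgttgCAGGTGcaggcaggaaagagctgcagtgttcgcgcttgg

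Of the mesenchymal repressors, Zeb2, Snai1 and Twist1 did not pass the test, while Twist2 fell. Zeb2 stood at 27.9 and 34.0 CPM at d4 and at 31.2 and 30.6 CPM at d6, Snai1 at 7.48 and 7.07 and then 8.18 and 8.90 CPM, and Twist1 at 41.3 and 38.9 and then 40.8 and 42.1 CPM (edgeR adjusted p = 1, 0.711 and 0.941). The d4 and d6 values of Zeb2 and Twist1 overlapped. The 19 mesenchymal transcription factors tested had a median log2 fold change of 0.00. Of them 2 fell and none rose, beside 1.05% and 3.62% of all genes. These were Runx2, a bone and fibroblast regulator (-0.61 ± 0.141, edgeR adjusted p = 0.0109), and Twist2 (-0.68 ± 0.18, edgeR adjusted p = 0.0288). Their adjusted p-values reached 0.113 and 0.521 with 1 library left out, and neither call held without WT d4 replicate 1 or WT d6 replicate 1 (Runx2 also without WT d6 replicate 2, Twist2 also without WT d4 replicate 2). Of 18 genes of the contractile apparatus 1 rose and none fell, beside 3.62% and 1.05% of all genes. Acta2, smooth muscle actin, was at 529.9 and 477 CPM and then at 484 and 496 CPM (edgeR adjusted p = 0.969).

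**Figure D2:**
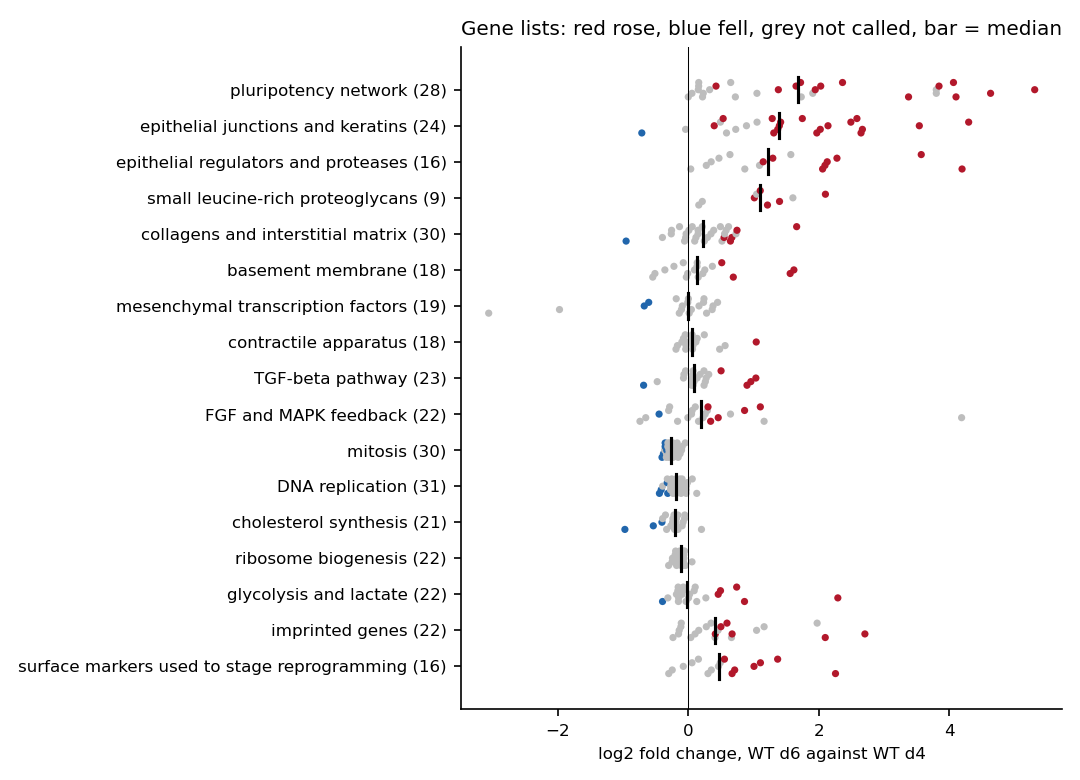
Each point is a tested gene of the list named on the left, with the number of tested genes in parentheses, at its log2 fold change of WT d6 over WT d4; red rose, blue fell, grey was not called, and the black bar is the median of the list. The pluripotency, epithelial and small proteoglycan lists lie to the right of 0, while the mitosis, DNA replication and cholesterol lists lie slightly to its left.

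Some matrix genes rose as well. Of 9 small leucine-rich proteoglycans tested 5 rose and none fell, beside 3.62% and 1.05% of all genes. Their median log2 fold change was 1.10, against 0 over all genes. Fmod, the collagen-binding proteoglycan fibromodulin, went from 22.0 and 21.7 CPM to 59.3 and 56.0 CPM, with 1.40 ± 0.15 (edgeR adjusted p = 1.65e-06). Bgn, biglycan, went from 126 and 122 CPM to 270.0 and 264 CPM, with 1.10 ± 0.167 (edgeR adjusted p = 0.000137), and Prelp, another proteoglycan of this family, from 53.3 and 56.8 CPM to 114 and 109 CPM, with 1.01 ± 0.112 (edgeR adjusted p = 2.36e-06). These 3 passed without each library. Each was higher in both d6 libraries than in either d4 library, as was every gene called as risen. Aspn and Ogn, the other members that rose, did not pass without WT d4 replicate 2 (their edgeR adjusted p-values reached 0.16 and 0.176 with 1 library left out), nor Aspn without WT d4 replicate 1 or WT d6 replicate 2, nor Ogn without WT d6 replicate 1.

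Of 30 collagens and interstitial matrix genes 5 rose and 1 fell, beside 3.62% and 1.05% of all genes, with a median of 0.23. Of those called Postn alone passed without each library. Postn, the matricellular protein periostin, went from 2.97 and 2.82 CPM to 9.01 and 9.29 CPM, with 1.66 ± 0.205 (edgeR adjusted p = 1.01e-05). It had stood at a mean of 1960.2 CPM in WT MEFs and 39.8 CPM at d2, so the d6 level was a small part of the fibroblast one. In the TGF-beta pathway list 4 of 23 rose and 1 fell, beside 3.62% and 1.05% of all genes. Pmepa1, a feedback inhibitor of the pathway, went from 25.9 and 23.3 CPM to 49.4 and 51.4 CPM, with 1.04 ± 0.147 (edgeR adjusted p = 5.53e-05), and Ltbp2, a latent TGF-beta binding family protein, from 80.2 and 106 CPM to 191 and 171 CPM, with 0.96 ± 0.169 (edgeR adjusted p = 0.000845). Inhbb, the activin subunit, rose by 0.90 ± 0.186, while Tgfbi, a TGF-beta-induced matrix protein, fell from 68.9 and 72.2 CPM to 43.8 and 43.9 CPM, with -0.69 ± 0.115 (edgeR adjusted p = 0.00374 and 0.000473). Of 18 basement membrane genes 4 rose and none fell, against the same shares. Among them were the laminin chains Lama5 (27.3 and 37.3, then 112 and 79.7 CPM, 1.56 ± 0.222) and Lamb3 (1.62 ± 0.292), and Agrn, the gene of agrin (edgeR adjusted p = 9.38e-05, 0.00101 and 0.0144). Agrn did not pass without WT d4 replicate 1 or WT d6 replicate 1 (adjusted p up to 0.294).

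Each gene called between d4 and d6 was also read for its change from WT d0 to WT iPSC, a contrast that shares no library with it but crosses 2 changes of medium. In it 13114 genes (77.5%) differed. Of the 557 risen genes that also differed between WT d0 and WT iPSC, 404 (72.53%) were higher in iPSC, and of the 158 such fallen genes 115 (72.78%) were lower, while over all genes called between d0 and iPSC 51.77% were higher. Among genes that changed at least 2-fold in both, the shares were 86.79% of 265 risen and 77.78% of 9 fallen genes. The other 153 risen genes ended lower in iPSC than in MEFs. Among them were Fmod, Bgn, Postn, Pmepa1, Ltbp2 and Pdgfrb, a receptor of mesenchymal cells. Itga11, a collagen-binding integrin chain, went from 2.49 and 2.32 CPM to 7.17 and 8.23 CPM (1.69 ± 0.214, edgeR adjusted p = 1.4e-05), and averaged 281 CPM in WT MEFs but 19.8 CPM in iPSCs of that genotype. Among WT d0, d2, d4, d6, d8 and iPSC, Fmod had its highest mean at d8 (69.3 CPM), against a mean of 10.2 CPM at d0 and 1.52 CPM in iPSC. Itga11 was chosen after its values were seen.

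**Figure D3:**
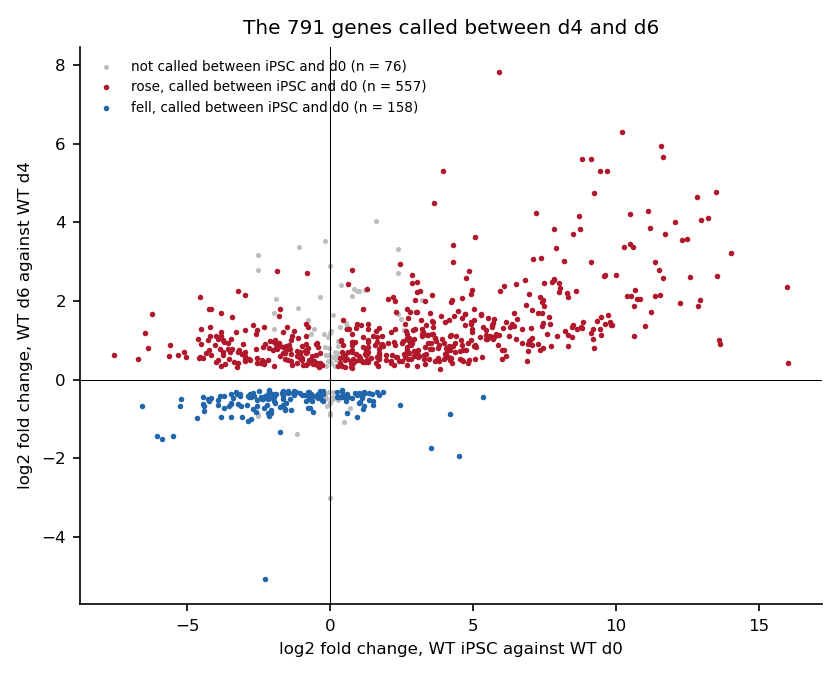
Each point is 1 of the 791 genes called between WT d4 and WT d6, with the log2 fold change of WT iPSC over WT d0 on the x axis and that of WT d6 over WT d4 on the y axis. Red points rose and blue points fell and also differed between iPSC and d0 (557 and 158 genes), and grey points (76 genes) did not differ there; 404 red points lie to the right of 0 and 153 to its left.

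Of the other genes among the 15 largest rises at a mean of at least 5 CPM, 5 are described here. Wnt8a, a Wnt ligand, stood at 1.27 and 0.983 CPM at d4 and at 12.4 and 11.5 CPM at d6, with 3.44 ± 0.176 (edgeR adjusted p = 3.09e-11). Tfap2c, an AP-2 transcription factor of early embryos, trophoblast and germ cells, went from 1.54 and 0.920 CPM to 12.4 and 9.34 CPM, with 3.21 ± 0.245 (edgeR adjusted p = 1.2e-08). Trh, a neuropeptide gene, Egfl6, a secreted EGF-repeat protein, and Ngfr, the low-affinity neurotrophin receptor, rose by 2.64 ± 0.145, 2.57 ± 0.185 and 2.42 ± 0.142 (edgeR adjusted p = 9.05e-11, 4.7e-09 and 1.1e-10). In all 5 genes both d6 libraries were above both d4 libraries, which the naming rule required. Wnt8a, Egfl6 and Ngfr did not go on to high levels in pluripotent cells, as WT iPSCs held 0.451 and 0.745 CPM of Wnt8a, 1.25 and 1.78 CPM of Egfl6 and 8.37 and 10.7 CPM of Ngfr.

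Igf2, a fetal growth factor, and H19, a long noncoding RNA, rose side by side. They are reciprocally imprinted neighbours that share enhancers, and lie 72624 bases apart on chromosome 7 of mm9, Igf2 from 149836673 to 149852721 and H19 from 149761434 to 149764048, both on the minus strand. Igf2 went from 12.8 and 11.7 CPM to 84.9 and 75.4 CPM, with 2.71 ± 0.343 (edgeR adjusted p = 4.75e-05), and H19 from 99.9 and 93.1 CPM to 415 and 413 CPM, with 2.10 ± 0.309 (edgeR adjusted p = 0.000232). The 2 d6 libraries lay close together and far from d4, whereas at d8 the 2 libraries stood apart for both genes (Igf2 at 100.01 and 244 CPM, H19 at 409 and 988 CPM). Of 22 imprinted genes tested 6 rose and none fell, beside 3.62% of all genes that rose, with a median of 0.41. The list did not hold Slc38a4, an imprinted gene that fell (edgeR adjusted p = 6.15e-06). Igf2 and H19 passed without each library, and Mirg, Peg3, Peg10 and Rian did not pass without WT d4 replicate 1 or WT d6 replicate 1, nor Mirg and Rian without WT d4 replicate 2, nor Peg3 and Rian without WT d6 replicate 2. Their edgeR adjusted p-values reached 0.323 for Mirg, 0.361 for Peg3, 0.239 for Peg10 and 0.287 for Rian.

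**Figure D4:**
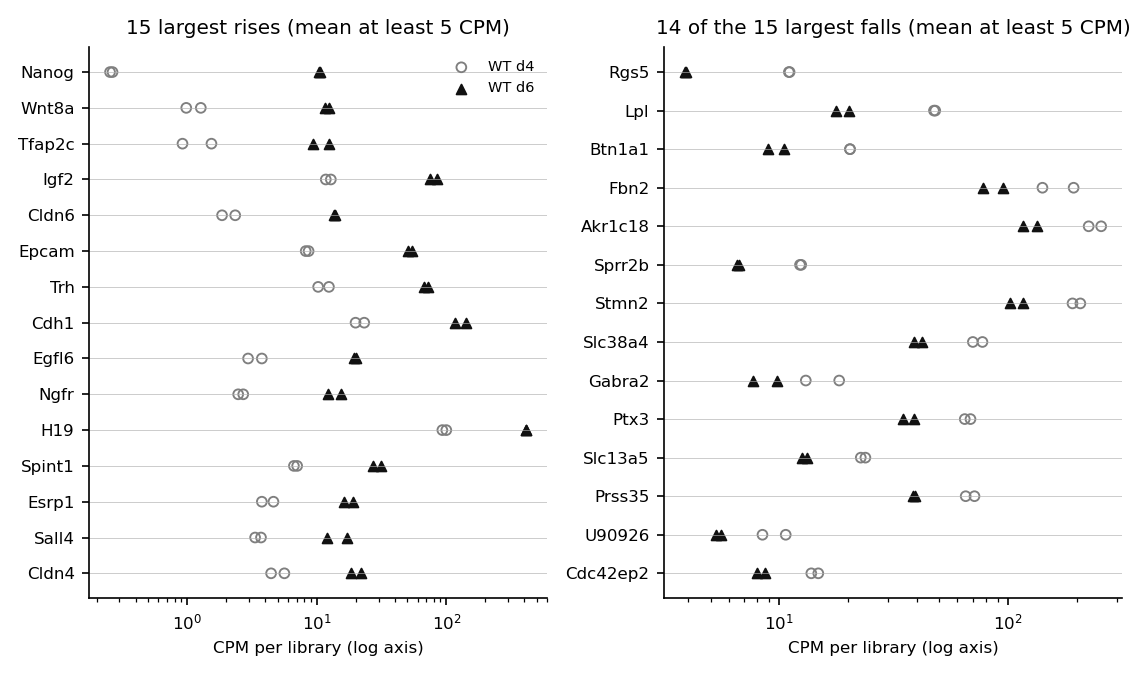
CPM per library on a log axis for the 15 genes with the largest rises (left) and 14 of the 15 with the largest falls (right) at a mean of at least 5 CPM; open circles are the 2 WT d4 libraries and filled triangles the 2 WT d6 libraries. The symbols of d4 and d6 do not overlap for any of these genes, which the rule requires, and the rises span a wider range than the falls.

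The falls were smaller. Rgs5, a regulator of G-protein signalling known from pericytes, went from 11.1 and 11.0 CPM to 3.86 and 3.90 CPM, with -1.51 ± 0.167 (edgeR adjusted p = 2.44e-06). Lpl, lipoprotein lipase, went from 48.1 and 47.5 CPM to 17.6 and 20.2 CPM, with -1.34 ± 0.11 (edgeR adjusted p = 2.48e-08). Btn1a1, a butyrophilin, Akr1c18, a steroid-converting reductase, Slc38a4, an imprinted amino acid transporter, Stmn2, a tubulin-binding protein of neurons, and Prss35 fell by 1.07 ± 0.118, 0.94 ± 0.133, 0.86 ± 0.102, 0.87 ± 0.133 and 0.82 ± 0.143 (edgeR adjusted p = 2.84e-06, 8.9e-05, 6.15e-06, 0.000141 and 0.000743). These 7 passed without each library. The other 8 of the 15 largest falls did not. Sprr2b and Slc13a5 reached edgeR adjusted p-values of 0.0541 without WT d6 replicate 1 and 0.0562 without WT d6 replicate 2. Fbn2, a microfibril protein (142 and 194, then 95.3 and 78.0 CPM, -0.95 ± 0.211), reached 0.169 without WT d4 replicate 2 and 0.144 without WT d6 replicate 2. Gabra2, Ptx3, U90926 and Cdc42ep2 each lost the call without WT d6 replicate 1, without WT d6 replicate 2 and without 1 of the d4 libraries (replicate 2 for Gabra2, replicate 1 for the others), with adjusted p-values up to 0.336, 0.151, 0.21 and 0.135.

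Genes of cell division were slightly lower at d6. Of 30 mitosis genes tested 5 fell and none rose, with a median log2 fold change of -0.27, and of 31 DNA replication genes 4 fell and none rose, with a median of -0.18, against 1.05% of all genes that fell and a median of 0. Ccnb2, a mitotic cyclin, stood at 62.9 and 52.7 CPM at d4 and at 46.2 and 41.1 CPM at d6 (-0.40 ± 0.0978, edgeR adjusted p = 0.0154). Rrm2, the ribonucleotide reductase subunit, stood at 242 and 224 and then 193 and 179 CPM (-0.32 ± 0.08, edgeR adjusted p = 0.0178), and Mcm6, a subunit of the replicative helicase, at 195 and 198 and then 161 and 154 CPM (-0.32 ± 0.0721, edgeR adjusted p = 0.00944). Summed over the list, mitosis genes took 2927 to 3062 CPM at d4 and 2466 to 2543 CPM at d6, so the 2 days did not overlap. None of these 9 calls held without each library, and without WT d4 replicate 1 or WT d6 replicate 2 no mitosis gene passed. Ccnb2 and Rrm2 had edgeR adjusted p-values of 0.262 and 0.186 without WT d4 replicate 1 and of 0.229 and 0.227 without WT d6 replicate 2, and Mcm6 did not pass without WT d4 replicate 2, WT d6 replicate 1 or WT d6 replicate 2 (up to 0.127). Of 21 genes of cholesterol synthesis and uptake 3 fell and none rose, with a median of -0.21. Fdps, an enzyme of the mevalonate pathway, was among them (-0.54 ± 0.12, edgeR adjusted p = 0.00789). It did not pass without WT d4 replicate 1, WT d6 replicate 1 or WT d6 replicate 2 (adjusted p up to 0.135), and none of the 3 passed without each library.

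Surface proteins that are used to follow reprogramming cells were higher at d6 for 7 of 16 genes tested and lower for none, with a median of 0.48, beside 3.62% of all genes that rose. Kit, the stem cell factor receptor, went from 1.11 and 1.05 CPM to 6.48 and 3.80 CPM, with 2.26 ± 0.307 (edgeR adjusted p = 3.78e-05). Alpl, alkaline phosphatase, rose by 1.37 ± 0.244, Pdgfrb by 1.11 ± 0.171, Prom1, CD133, by 1.01 ± 0.174 and Icam1, an adhesion receptor, by 0.71 ± 0.0994 (edgeR adjusted p = 0.0011, 0.00017, 0.000641 and 4.78e-05). Itgb4, the epithelial integrin chain, rose by 0.67 ± 0.121 (edgeR adjusted p = 0.00101) and did not pass without WT d4 replicate 1. Thy1, which falls as fibroblasts are lost, was among those that rose, with 0.55 ± 0.141 (edgeR adjusted p = 0.021), but it did not pass without any 1 of the 4 libraries (adjusted p between 0.0544 and 0.214). The markers that rose thus included both pluripotent and mesenchymal ones.

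Among enzymes of chromatin, Tet1, which oxidises methylated cytosine, went from 2.02 and 2.47 CPM to 7.40 and 6.40 CPM, with 1.59 ± 0.176 (edgeR adjusted p = 2.39e-06). Dnmt3b, a de novo DNA methyltransferase, went from 6.42 and 6.06 CPM to 15.0 and 10.3 CPM, with 1.03 ± 0.142 (edgeR adjusted p = 4.49e-05). They were the 2 of 9 DNA methylation enzymes that passed. Both d6 values lay above both d4 values, as for every gene called as risen. Over all genes 3.62% rose and 1.05% fell, shares that stand beside this list and the 2 that follow. Of 11 PRC2 genes Jarid2 alone rose (0.48 ± 0.0945, edgeR adjusted p = 0.00226, up to 0.112 without WT d4 replicate 1 or WT d6 replicate 1). Of 13 enzymes of H3K36 methylation Whsc1, an H3K36 methyltransferase, alone fell (-0.39 ± 0.108, edgeR adjusted p = 0.0385, up to 0.391 without WT d4 replicate 2, WT d6 replicate 1 or WT d6 replicate 2). In the glycolysis and lactate list 5 of 22 rose and 1 fell, beside 3.62% and 1.05% of all genes, with a median of -0.02. Slc16a3, the lactate exporter MCT4, went from 0.955 and 1.05 CPM to 5.38 and 4.57 CPM, with 2.29 ± 0.281, and Slc2a3, the glucose transporter GLUT3, from 125 and 131 CPM to 238 and 227 CPM, with 0.86 ± 0.0911 (edgeR adjusted p = 9.22e-06 and 1.38e-06). These transporters passed without each library.

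Of 22 genes of the FGF pathway and its MAPK feedback 5 rose and 1 fell, beside 3.62% and 1.05% of all genes, and only Fgf18, an FGF ligand, passed without each library (2.97 and 2.60, then 5.70 and 6.21 CPM, 1.11 ± 0.193, edgeR adjusted p = 0.000706). Dusp6, the ERK phosphatase, rose by 0.46 ± 0.0968 (edgeR adjusted p = 0.00454) but did not pass without WT d4 replicate 1, WT d4 replicate 2 or WT d6 replicate 2 (adjusted p up to 0.0639). Of 33 Wnt pathway genes 1 rose and 1 fell, of 21 BMP pathway genes 1 and 1, and of 22 cell cycle inhibitors and p53 targets 1 and 1. The Wnt list did not hold Wnt8a, the Wnt ligand described above that rose (edgeR adjusted p = 3.09e-11). Of 24 interferon response genes Ddx58, the RNA sensor RIG-I, alone rose, from 31.5 and 32.5 CPM to 59.5 and 64.1 CPM (0.95 ± 0.108, edgeR adjusted p = 3.65e-06). No gene passed among 16 AP-1 and immediate early genes, 15 of endoplasmic reticulum stress, 14 NRF2 targets, 22 of ribosome biogenesis or 17 of the germline in edgeR's test.

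Markers of cell types other than fibroblasts and pluripotent cells were read to see what else the libraries held. Of 11 macrophage markers tested none passed, and their summed level was 15.3 to 16.5 CPM at d4 and 11.1 to 14.1 CPM at d6, with Ptprc, the pan-leukocyte gene, at 0 counts at d6. Of 11 endothelial markers 3 rose, beside 3.62% of all genes. Cldn5 went from 2 counts to 36 over both libraries, a ratio of 21.3 (95% interval 5.49 to 183, counting error only). Kdr and Flt1, VEGF receptors, rose by 1.58 ± 0.322 and 0.79 ± 0.206 (edgeR adjusted p = 0.00341 and 0.0256; Kdr did not pass without WT d4 replicate 1, adjusted p = 0.0589, nor Flt1 without any 1 of the 4). The defining endothelial genes Cdh5 and Pecam1 stood at means of 0.228 and 0.143 CPM at d4 and 0.377 and 0.19 CPM at d6, and Emcn had 0 counts at both. Of 12 trophoblast genes 3 rose, beside the same share, namely Tfap2c, Tfap2a and Peg10, while Cdx2 and Elf5 had 0 counts at d4. Tfap2a did not pass without WT d4 replicate 1, WT d4 replicate 2 or WT d6 replicate 1 (adjusted p up to 0.16). Of 11 primitive endoderm and 7 skeletal muscle markers none passed. Of 14 neural markers Dcx and Mbp rose and Stmn2 fell, beside 3.62% and 1.05% of all genes. Of 6 adipocyte markers Lpl and Pparg fell, beside the same share of falls, and Fabp4 had 0 counts at d6. Pparg did not pass without any 1 of the 4 libraries (adjusted p up to 0.171). The part of such cells in the results was not tested.

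The 2-day step was set against its neighbours by testing the difference of the steps, since the steps share libraries. The d2 to d4 step had 5460 called genes (32.2%), the d4 to d6 step 791 and the d6 to d8 step 2722 (16.1%). The change per step differed between d2 to d4 and d4 to d6 for 1603 genes (9.47%), or for 849 without WT d4 replicate 1 and 978 without WT d4 replicate 2. Several genes turned at d4. Slc16a3 fell by 4.43 ± 0.241 on the log2 scale from d2 to d4 and then rose, a difference of 6.72 ± 0.48, and the differences were 5.45 ± 0.362 for Postn and 4.86 ± 0.633 for Igf2 (edgeR adjusted p = 2.67e-09, 1.32e-09 and 4.38e-05). Others rose steeply before d4 and then slowed. Wfdc2, a secreted epithelial protein, stood at 0.204 and 0.193 CPM at d2, 22.8 and 17.1 CPM at d4 and 48.3 and 47.6 CPM at d6, a difference of steps of -5.32 ± 0.484 (edgeR adjusted p = 1.12e-07). Cdh1 rose by 5.67 ± 0.276 and then by 2.59 ± 0.165, a difference of -3.08 ± 0.399 (edgeR adjusted p = 1.25e-05). Nanog did the opposite, with 0.68 ± 0.488 before d4 and 5.31 ± 0.217 after it, a difference of 4.63 ± 0.748 (edgeR adjusted p = 0.000177).

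The step from d6 to d8 differed from that between d4 and d6 for 112 genes (0.661%). That count was between 2 (without WT d6 replicate 2) and 63 (without WT d4 replicate 2) with 1 of the 6 libraries left out, and was lower by more than 1.5 times without each of them. Nanog rose by 2.89 ± 0.116 from d6 to d8, a difference of -2.43 ± 0.321 from the step before, and Wnt8a by 0.91 ± 0.123, a difference of -2.53 ± 0.257 (edgeR adjusted p = 0.000623 and 4.02e-05). Both passed without each library. Clca1, a secreted protein named for chloride channel regulation, turned, from 4.40 and 5.04 CPM at d4 to 7.77 and 7.84 at d6 and 2.82 and 3.47 at d8 (difference -2.004 ± 0.289, edgeR adjusted p = 0.00158, and 0.0871 without WT d6 replicate 2), though its d4 to d6 step alone did not pass without any 1 of the 4 libraries (adjusted p between 0.0521 and 0.139). Gldc, the glycine cleavage enzyme, was at 5.94 and 6.76, then 7.72 and 6.55, then 25.9 and 26.0 CPM (difference 1.70 ± 0.289, edgeR adjusted p = 0.00815, and 0.268 without WT d6 replicate 2 and 0.0554 without WT d6 replicate 1).

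**Figure D5:**
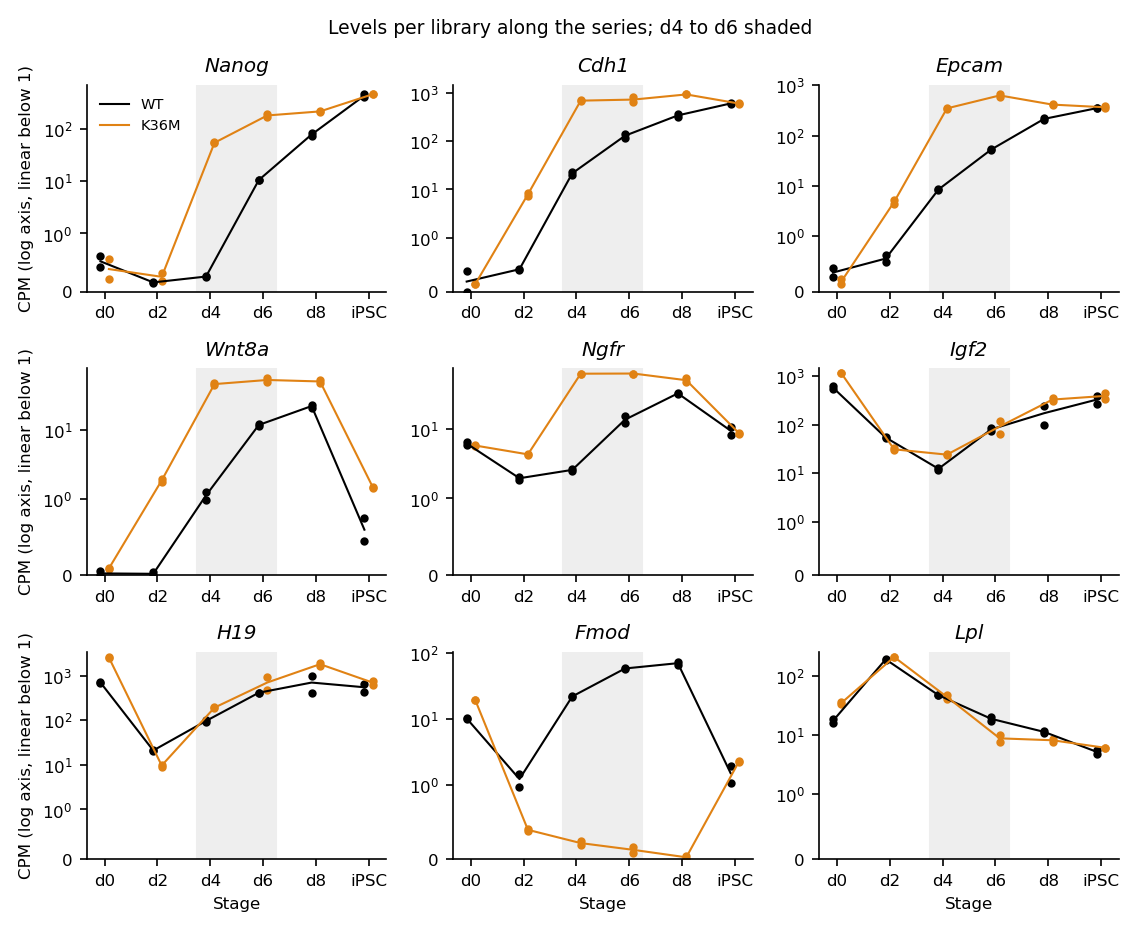
CPM per library (points) and group means (lines) of 9 genes at d0, d2, d4, d6, d8 and in iPSC, on an axis that is logarithmic above 1 CPM and linear below it, WT in black and K36M in orange, with d4 to d6 shaded. WT Nanog leaves its base level between d4 and d6, Igf2 turns at d4, and Fmod is at 59.3 and 56.0 CPM in WT d6 and below 1 CPM in K36M d6.

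The same 2 days were compared in K36M cells, which grew in the same medium and share no library with the WT step. In K36M 9359 genes (55.3%) differed between d4 and d6. The step itself differed between the genotypes for 6458 genes (38.1%), with 2881 differences above 0 (17%) and 3577 below 0 (21.1%), K36M minus WT. That count was 6375 to 6527 with the other scalings, filters and DESeq2. It moved further, both down and up, with 1 library left out. In the K36M d6 libraries the top 50 genes took 13.9% and 12.7% of counts, against 10.6% and 10.8% at K36M d4. At K36M d8 they took 10.7% and 10.8%. The part of this in the count of differences was not tested. Of the genes that led the WT step, Cdh1, Nanog and Ngfr stood higher in K36M at d4 than in WT at d6. Cdh1 stood at 698 and 672 CPM in K36M at d4 and at 638 and 804 CPM at d6, a step of 0.07 ± 0.149, which differed from the WT step by -2.51 ± 0.22 (edgeR adjusted p = 3.02e-08). Nanog stood at 52.3 and 55.7 CPM and then at 191 and 167 CPM, a step of 1.73 ± 0.104, with a difference of -3.58 ± 0.27 (edgeR adjusted p = 4.21e-09). Ngfr stood at 63.4 and 63.8 and then at 63.9 and 63.9 CPM, with a difference of -2.41 ± 0.177 (edgeR adjusted p = 3.59e-09). For Igf2 and H19 the steps of K36M were 1.93 ± 0.326 and 1.87 ± 0.305, and the differences from WT, -0.78 ± 0.461 and -0.23 ± 0.42, did not pass (edgeR adjusted p = 0.199 and 0.71). The K36M d6 libraries disagreed on these genes (Igf2 at 121 and 62.7 CPM, H19 at 913 and 488 CPM).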

How the data were processed

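Poly(A) RNA of 28 mouse libraries was measured. The authors deposited raw counts of reads, 1 whole number per gene and library. The build was mm9, and STAR 2.5.0, HTSeq 0.11.2 and edgeR were used, per the submitters' processing notes. The gene annotation, use of strand and treatment of multi-mapping reads were not given in the sources used here, so genes with near-identical copies, overlapping genes and antisense pairs are uncertain. The 37 mitochondrial genes listed were all at 0, so mitochondrial RNA could not be checked. Columns were matched to samples by name.

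The test was edgeR 4.0.16 (R 4.3.3) with TMM scaling. Genes passed filterByExpr at a count of 10 and a total of 15, and all 14 groups entered a robust quasi-likelihood fit (16932 genes, 14 residual degrees of freedom), which was tested on simulated data. The contrasts were WT d6 against WT d4, its differences from the d2 to d4, d6 to d8 and K36M d4 to d6 steps, and WT iPSC against WT d0. Two-sided p-values were adjusted (Benjamini-Hochberg, all tested genes of each contrast), and a gene was called under 0.05. The SE is the size of a log2 fold change divided by the square root of its F statistic. A floor of 3 counts over a group was used for genes at 0. Alternatives were other scalings, filters, DESeq2 1.42.0, fewer libraries, a replicate block and leaving out each library. The comparison and the gene lists were chosen with earlier results of these data known, so counts within lists are descriptions. Named genes are the 15 largest called rises and falls whose days did not overlap, with 5 CPM or more on average and no predicted, clone, pseudogene, small RNA or ribosomal protein symbol, up to 4 members per list by size of change (up to 2 by level where none passed), the 5 largest differences of each sign between steps, and a fixed set of 15 identity and cell cycle genes. Other list members are named where a role is described, after their values were seen. Gene coordinates come from GENCODE vM1 on mm9 (37205 of 37620 IDs found) and promoter windows from RefSeq on GRCm38.p6. Some list members are not reported here.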

Additional observations from a re-analysis of the deposited data

Results flagged for a closer look

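The step from d4 to d6 differed between K36M and WT, by the test of that difference itself, for 10 genes that the naming rule took from this contrast, and the values below are the K36M step minus the WT step on the log2 scale. Differences above 0 were 3.95 for Igfbp2, an IGF-binding protein, 3.65 for Klhl13, a ubiquitin ligase adaptor, 3.37 for Bnip3, a mitophagy receptor, 3.26 for B3gnt5, a glycosyltransferase, and 3.22 for Cthrc1, a secreted collagen-repeat protein. None of these 5 passed the test in the WT step alone, whereas in K36M Klhl13 went from 7.87 and 9.58 CPM to 98.6 and 118 CPM. The K36M d6 libraries stood apart for Igfbp2, at 154 and 49.2 CPM.

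Differences below 0 were -6.17 for Nr5a2, a nuclear receptor of pluripotent cells, -5.56 for Cyp2b23, a cytochrome P450, -5.29 for Tnk1, a kinase, -4.19 for Krt17, a keratin, and -4.12 for Gpx2, a glutathione peroxidase. Nr5a2 rose in WT, from 0.159 and 0.0634 CPM to 2.76 and 2.94 CPM, and fell in K36M, from 25.6 and 24.0 CPM to 7.38 and 11.2 CPM. The sizes of all these differences, that of Nr5a2 included, rest on few WT counts at d4. Over both libraries Cyp2b23 went from 0 to 52 counts, at least 20.5-fold higher against a floor of 3 counts for the d4 group, and Krt17 from 0 to 14 counts, at least 5.53-fold higher. Tnk1 went from 1 to 54 counts, a ratio of 63.9 (95% interval 11.0 to 2572), and Gpx2 from 3 to 74, a ratio of 29.2 (9.61 to 144.9), where intervals and floors cover counting error only. The Krt17 difference did not pass without WT d4 replicate 1 or WT d4 replicate 2 (edgeR adjusted p = 0.0641 and 0.137).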

How the results depend on the processing

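No result named in the text reversed under any alternative run. The 791 genes called between d4 and d6 became 379 to 489 with 1 library left out, the 613 that rose 327 to 428, and the 178 that fell 52 to 80, while the 325 that changed at least 2-fold became 214 to 285. The count of genes that fell was 269 with no filter on low counts, 269 with DESeq2 and 374 in a fit of the 14 WT libraries. The other alternatives gave 755 to 1184 genes in all, and 698 to 785 of the 791 were among those called by each of them. The difference from the d2 to d4 step covered 849 to 1266 genes with 1 library left out, against 1603. The difference from the d6 to d8 step covered 112 genes, 310 with no filter, 418 with DESeq2 and 2 to 63 with 1 library left out. Among genes that changed at least 2-fold in both contrasts, the share of risen genes higher in iPSC was 86.79% in place of 72.53%, and that of fallen genes lower in iPSC 77.78% in place of 72.78%. Of 130 named genes called, 64 passed under each of the 13 alternatives that gave them an adjusted p. DESeq2 gave one for 127 of the 130, and the fit of the 4 libraries of WT d4 and d6 for 128. With a replicate block over WT d4 and d6, 755 genes were called. Same-numbered libraries of these 2 days did not deviate together (correlation of their deviations -0.25 over 10430 genes). The deviations of the WT d4 pair did correlate with those of WT d0 (0.71) and WT d8 (0.54), though not WT d2 (-0.05). What the replicate numbers share was not tested. With the pairing crossed between the days, chosen after seeing the data, 808 were called. The causes of these differences were not tested. Leaving 1 library out changes both how many and which libraries are fitted, so these 2 parts were not separated. With 2 libraries a day, small changes such as those of cell division genes are at the limit of what the design can call, and 2495 genes had an unadjusted p under 0.05. At these depths a gene with no counts at one day has no measured fold.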

Other observations

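A few smaller groups moved between WT d4 and WT d6 in both directions. Of 22 genes of serine synthesis and ATF4 targets 2 rose and 2 fell, beside 3.62% and 1.05% of all genes. Those that fell were Phgdh and Psat1, enzymes of the serine pathway (log2 fold changes -0.40 ± 0.0864 and -0.32 ± 0.0836, edgeR adjusted p = 0.00635 and 0.0242). Neither passed without WT d4 replicate 2 or WT d6 replicate 1 (Psat1 also not without the other 2), with adjusted p-values up to 0.0839 and 0.228. Of 23 cytokines and inflammatory mediators 1 rose and 1 fell, beside the same shares. Spp1, osteopontin, went from 22.3 and 19.0 CPM to 30.8 and 36.1 CPM and passed without each library (0.70 ± 0.116, edgeR adjusted p = 0.000383). Ccl7, a chemokine, fell from 79.5 and 62.9 CPM to 44.5 and 47.7 CPM (-0.62 ± 0.171, edgeR adjusted p = 0.0353). It did not pass without WT d4 replicate 1, WT d6 replicate 1 or WT d6 replicate 2. Of 35 Hox genes Hoxc13 alone rose (edgeR adjusted p = 0.0345), and it did not pass without any 1 of the 4 libraries.

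The promoter windows of the mitosis and DNA replication genes were read for the cell cycle element TTTGAA on both strands. It was in 17.9% of all windows, 12.1% of the windows of genes tested, 38.9% of those of all mitosis and replication genes tested (21 of 54) and 62.5% of those of the genes among them that fell (5 of 8, from 8 of 9 genes matched). A match of letters describes the window and was not tied to the change.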
